A study of Pongo abelii with 8 samples.

Results

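The expression of regulators and markers of the mesenchymal-epithelial switch was examined in skin fibroblasts and induced pluripotent stem cells (iPSCs) of Sumatran orangutans (Pongo abelii). The 9 genes considered were the transcription factors SNAI2, TWIST1, ZEB1 and PRRX1, the mesenchymal structural genes VIM and FN1, the epithelial adhesion gene EPCAM, and the epithelial splicing factors ESRP1 and ESRP2. Every probe set was taken whose annotation gave exactly 1 gene symbol from this set, which yielded 15 of the 22277 probe sets of the array. They represented 8 of the 9 genes and belonged to a total of 11963 genes with such a probe set. The probe set of ESRP2 carried several symbols, so ESRP2 was not analysed here.

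The 8 arrays came from 2 animals, both labelled as healthy controls, the 43 year old female KB10460 and the 29 year old male KB10973. Each animal gave 1 dermal fibroblast culture and 3 iPSC colonies, for 2 fibroblast and 6 iPSC arrays in all. The colonies had been made from the fibroblasts of the same animal with retroviruses carrying human OCT4, SOX2, KLF4 and c-MYC, and had been expanded on inactivated mouse feeder cells. The growth notes of the samples describe a serum medium for the fibroblasts and a knockout serum replacement medium for the iPSCs, and the design text describes the latter for both. The fibroblasts were harvested with trypsin and the iPSCs with collagenase, so harvest and cell type cannot be told apart. All colonies of a donor share 1 animal and 1 starting culture, and p-values therefore describe the variation of colonies and cultures from 2 orangutans, not that of the species. The array was designed for human transcripts, so a probe that mismatches the orangutan sequence gives a lower signal, equally in both cell types of a donor. Levels are therefore compared between arrays for 1 probe set at a time, never between genes.

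Mesenchymal cells such as fibroblasts are spindle-shaped, lie apart from each other and secrete extracellular matrix, whereas epithelial cells, and also pluripotent stem cells, grow as sheets or compact colonies held together by E-cadherin junctions. The transition from the epithelial to the mesenchymal state is driven by the SNAI, ZEB, TWIST and PRRX transcription factors. SNAI and ZEB proteins bind E-box sequences in promoters of epithelial genes and repress them. The reverse transition is an early step when fibroblasts are reprogrammed with the 4 factors used here. ESRP1 and ESRP2 are RNA-binding proteins of epithelial cells that select the epithelial splice forms of transcripts such as FGFR2 and CD44.

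The labelled cell types were checked against marker genes, of which the log2 of the summed signal is given. The 6 measured markers of pluripotent cells, among them NANOG, SOX2 and LIN28A, summed to 7.01 and 6.79 in the fibroblasts and to 12.2 to 12.6 in the iPSCs, and all 6 were called higher there. Of 9 fibroblast markers 8 were called lower in iPSCs, and their sum was 14.1 and 14.3 in the fibroblasts and 8.63 to 9.48 in the iPSCs. The exception was THY1, at 3.71 in the KB10460 and 4.35 in the KB10973 fibroblasts and at 6.62 to 7.21 in the iPSCs. It was thus near background in the fibroblasts and higher in iPSCs by 2.79 on the log2 scale, and the cause was not tested. Of 6 keratinocyte markers limma called 0 (sum 6.20 to 6.30 in fibroblasts and 6.11 to 6.20 in iPSCs). An unadjusted p under 0.05 was reached by 1 of these and by 5204 of all 11963 genes. The keratins KRT5 (3.17 to 3.51) and KRT14 (2.99 to 3.35), which define basal keratinocytes, were at background in all arrays. The 5 leukocyte markers summed to 8.26 in the KB10460 fibroblasts and 6.36 in the KB10973 fibroblasts, against 5.66 to 5.71 in the iPSCs. Of these 2 were called lower in iPSCs, CD14 (7.99 and 5.42 in the fibroblasts, 3.22 to 3.58 in the iPSCs) and ITGB2 (4.44 and 3.68, 3.37 to 3.57), and without the KB10460 fibroblasts the call of ITGB2 was lost and the change of CD14 went from -3.33 to -2.05. The pan-leukocyte gene PTPRC was at 3.33 and 3.26 in the fibroblasts. Of 6 endothelial markers KDR and TEK were called higher in iPSCs and PECAM1 lower, which was at 8.10 and 6.65 in the fibroblasts, while CDH5 was at 3.10 in both (sum 7.31 to 8.44 in fibroblasts and 7.46 to 8.32 in iPSCs). Of 5 melanocyte markers PMEL alone was called, higher in iPSCs. The part of such cells in the results was not tested. Leaving out the KB10460 fibroblasts cannot test it, since CD14 (5.42) and PECAM1 (6.65) were above the array medians in the KB10973 fibroblasts too. The median of an array lay between 3.74 and 3.82, and values near or below it are background and understate a fold change.

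All 15 probe sets differed between the cell types, with the mesenchymal genes lower and the epithelial genes higher in iPSCs. The 13 probe sets of SNAI2, TWIST1, ZEB1, PRRX1, VIM and FN1 were called lower in iPSCs and the 2 of EPCAM and ESRP1 were called higher, where a call needs a change over 1.5-fold and an adjusted p under 0.05 (limma, Benjamini-Hochberg over all probe sets, two-sided). Over the whole array 9.60% of probe sets were called lower and 12.2% were called higher. With the colonies averaged within each donor 10 were called lower and 2 higher. In all 15 the ranges of the cell types did not overlap. Across the array all 6 iPSC arrays lay below both fibroblast arrays for 18.2% of probe sets and above both for 19.8%. Since the arrays measure bulk RNA, fewer cells that express a gene and less of its RNA per cell cannot be told apart.

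**Figure D1:**
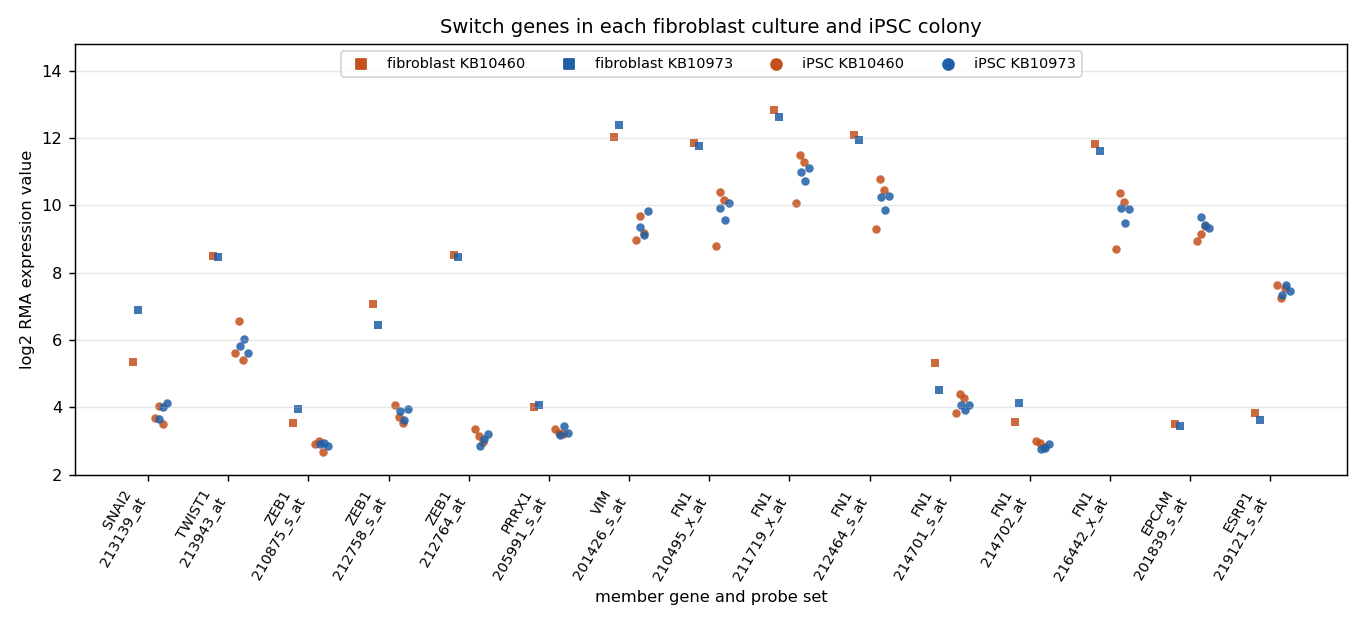
Log2 RMA expression value (vertical axis) of the 15 probe sets in each of the 8 arrays, with squares for the 2 fibroblast cultures, circles for the 6 iPSC colonies and colours for the donors. For SNAI2, TWIST1, ZEB1, PRRX1, VIM and FN1 every circle lies below both squares, and for EPCAM and ESRP1 every circle lies above both; heights of different probe sets are not comparable.

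Among the transcription factors, the largest fitted decrease was that of ZEB1, a zinc finger repressor of E-cadherin and other epithelial genes, at 212764_at. Colony values at background understate a decrease, also for SNAI2 and PRRX1, so the order of the factors is not settled. ZEB1 at 212764_at had values of 8.52 in the KB10460 fibroblasts and 8.46 in the KB10973 fibroblasts. In the iPSC colonies its lowest, median and highest values were 2.86, 3.09 and 3.35. All 6 colonies were thus below the array medians, and the fibroblasts of the donors lay close together. The log2 fold change was -5.40 (SE 0.12, 95% interval -5.68 to -5.12, adjusted p = 4.8e-09), or 42.2-fold. A second probe set, 212758_s_at, had values of 7.07 and 6.45 in the fibroblasts and 3.53, 3.80 and 4.07 in the colonies, a change of -2.96 (SE 0.19, adjusted p = 3.4e-06). The third, 210875_s_at, was already near background in the fibroblasts (3.54 and 3.95) and lay at 2.66 to 3.01 in the colonies, a change of -0.87 (SE 0.12, adjusted p = 5.9e-04). The probe sets of ZEB1 thus gave the same direction.

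TWIST1, a basic helix-loop-helix factor of mesenchyme and neural crest, had nearly equal values of 8.50 and 8.46 in the fibroblasts of KB10460 and KB10973. In the iPSC colonies the lowest, median and highest values were 5.40, 5.72 and 6.57, all above the array medians. TWIST1 fell by 2.64 on the log2 scale (SE 0.26, 95% interval -3.23 to -2.05, adjusted p = 6.2e-05), which is 6.22-fold. Colony 2 of KB10460 had the highest TWIST1 value of the iPSCs and colony 3 of the same donor the lowest, a 2.25-fold range.

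SNAI2, also known as SLUG, is a zinc finger repressor that fibroblasts and neural crest cells express. It was at 5.35 in the fibroblasts of KB10460 and 6.89 in those of KB10973, and at 3.49, 3.85 and 4.11 (lowest, median, highest) in the colonies. The fibroblast cultures differed more from each other than the 6 colonies did, whose values were around the array medians. The log2 fold change was -2.29 (SE 0.34, 95% interval -3.06 to -1.51, adjusted p = 8.1e-04). Leaving out the fibroblasts of KB10460 gave -3.06, leaving out those of KB10973 gave -1.52, and the call was lost when the colonies of each donor were averaged (adjusted p = 0.068).

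PRRX1, a homeobox gene of limb and skin mesenchyme, was represented by 205991_s_at only. Its values were 3.997 and 4.08 in the fibroblasts and 3.17, 3.24 and 3.45 in the colonies, so that both fibroblast cultures were just above the array medians and all colonies below them. The change of -0.76 (SE 0.09, 95% interval -0.96 to -0.55, adjusted p = 2.0e-04) corresponded to 1.69-fold and was past the 1.5-fold rule but not past a 2-fold rule.

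VIM encodes vimentin, the main intermediate filament protein of fibroblasts and other mesenchymal cells, which many cultured cells express as well. It had values of 12.04 and 12.40 in the fibroblasts and of 8.97, 9.27 and 9.83 (lowest, median, highest) in the iPSC colonies. VIM decreased by 2.87 on the log2 scale (95% interval -3.38 to -2.36, SE 0.23, adjusted p = 1.5e-05), or 7.30-fold. All colonies were below both fibroblast cultures, yet every colony remained far above the array medians, so the VIM signal was lowered and not lost. The colonies had been expanded on mouse feeder cells, and the part of feeder RNA in this signal was not tested.

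FN1 encodes fibronectin, a secreted matrix glycoprotein that integrins bind, and was covered by 6 probe sets. At 211719_x_at the fibroblasts had values of 12.84 and 12.61 and the colonies 10.07, 11.05 and 11.51, a change of -1.78 (SE 0.32, 95% interval -2.50 to -1.05, adjusted p = 0.0024). At 210495_x_at they were 11.86 and 11.76 in the fibroblasts and 8.79, 10.00 and 10.40 in the colonies, at 212464_s_at 12.09 and 11.95 against 9.30, 10.27 and 10.78, and at 216442_x_at 11.82 and 11.63 against 8.71, 9.92 and 10.37. These 4 bright probe sets gave folds of 3.43 to 3.98 and adjusted p of 0.0019 to 0.0028. Their colonies lay well above the array medians, as for VIM, and the part of feeder RNA was not tested here either. In the naming of the array, probe sets that end in _x_at may also hybridize with other transcripts.

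The remaining FN1 probe sets were dim. 214702_at was at 3.57 and 4.13 in the fibroblasts and at 2.77, 2.87 and 2.98 in the colonies (change -0.98, SE 0.14, adjusted p = 5.4e-04). 214701_s_at was at 5.31 and 4.51 in the fibroblasts and at 3.83, 4.06 and 4.39 in the colonies (change -0.82, SE 0.21, adjusted p = 0.016). Its lower fibroblast value was close to the highest colony, and without the KB10460 fibroblasts its change was -0.42 and no longer called (adjusted p = 0.196). With the colonies averaged within each donor neither dim probe set was called (adjusted p = 0.056 for 214702_at and 0.165 for 214701_s_at).

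EPCAM, a homophilic adhesion molecule of epithelia that is also a surface protein of pluripotent stem cells, had the larger fitted increase of the 2 epithelial genes. It was at 3.50 and 3.45 in the fibroblasts, below the array medians, and at 8.94, 9.37 and 9.65 (lowest, median, highest) in the colonies. The log2 fold change of 5.84 (SE 0.16, 95% interval 5.47 to 6.21, adjusted p = 1.6e-08) corresponded to 57.3-fold. Because the fibroblast values were at background, the fold is understated, as is that of ZEB1 at 212764_at, and which of these changes was larger is not settled.

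ESRP1 was at 3.83 and 3.63 in the fibroblasts and at 7.24, 7.50 and 7.65 (lowest, median, highest) in the colonies. Both fibroblast cultures were at the level of the array medians and all 6 colonies lay far above it. ESRP1 rose by 3.75 on the log2 scale (SE 0.12, 95% interval 3.47 to 4.03, adjusted p = 5.3e-08), or 13.4-fold.

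**Figure D2:**
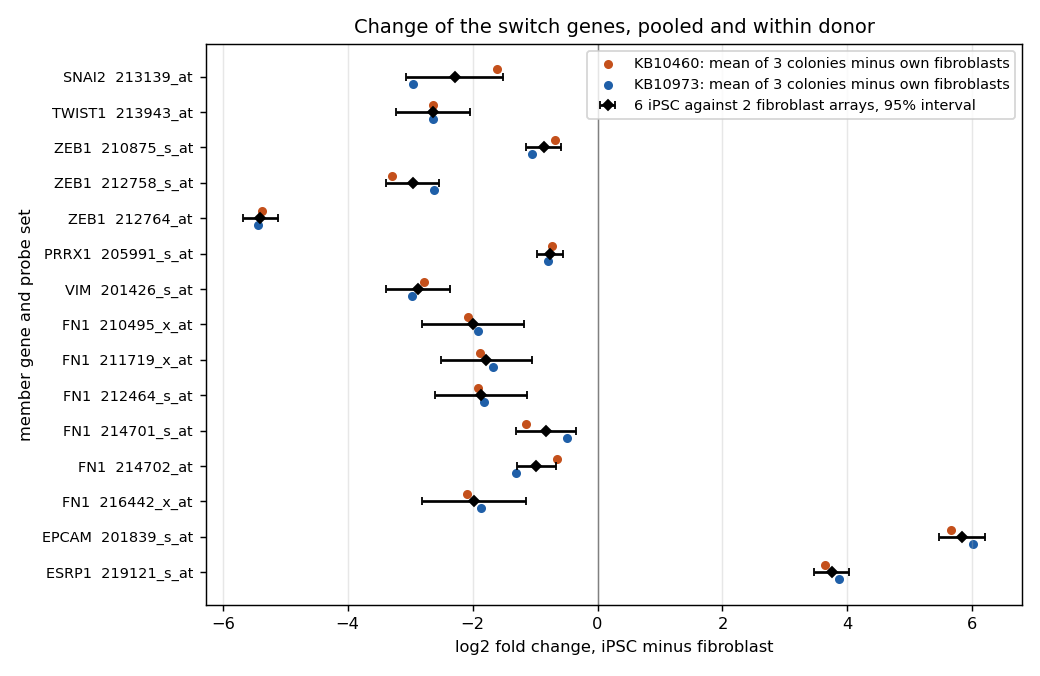
Log2 fold change of iPSCs against fibroblasts (horizontal axis) for the 15 probe sets, with the estimate over all 8 arrays and its 95% limma interval (diamonds and bars) and the change within each donor (coloured points, 3 colonies minus the fibroblasts of the same donor). No interval includes 0, and the points of the donors lie farthest apart for SNAI2 (-1.61 in KB10460 and -2.96 in KB10973).

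Whether colonies of the donors differed was examined next. Between the iPSCs of KB10973 and KB10460, 3 colonies against 3, limma called 0 of the 15 probe sets, and 0 had an unadjusted p under 0.05. On the whole array 0.0898% of probe sets were called (20 of 22277), and 2265 had an unadjusted p under 0.05. The widest intervals were those of the bright FN1 probe sets. For EPCAM the KB10973 colonies were on average 0.31 higher (SE 0.14, 95% interval -0.01 to 0.62, adjusted p = 0.51), and colony 1 of KB10460 was the lowest. For ESRP1 the difference was 0.02 (-0.28 to 0.31), for VIM 0.17 (-0.35 to 0.70), for TWIST1 -0.05 (-0.70 to 0.61), for SNAI2 0.19 (-0.20 to 0.59) and for FN1 at 211719_x_at -0.02 (-0.82 to 0.78). A donor difference of 1.5-fold, 0.585 on this scale, lay inside the intervals of EPCAM, VIM, TWIST1, SNAI2 and FN1 and outside that of ESRP1.

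The change from fibroblast to iPSC within each donor was then compared. It was 5.66 in KB10460 and 6.02 in KB10973 for EPCAM, and 3.64 and 3.86 for ESRP1. It was -5.37 and -5.43 for ZEB1 at 212764_at, -2.63 and -2.64 for TWIST1, -2.77 and -2.96 for VIM, and -1.88 and -1.68 for FN1 at 211719_x_at. Both donors had the same direction for all 15 probe sets. This follows from the ranges of the cell types not overlapping and is not a separate result. Since a donor is represented by a single fibroblast array, the spread of fibroblast cultures within a donor was not measured, and the test of the difference takes it from the colonies. Under that assumption the difference between the donors' changes was called for 0 of 15 probe sets and for 2.91% of the array, and 2 of the 15 had an unadjusted p under 0.05. For SNAI2 the changes were -1.61 in KB10460 and -2.96 in KB10973 (difference -1.34, SE 0.34, adjusted p = 0.094). For FN1 at 214702_at they were -0.65 and -1.31 (difference -0.66, SE 0.17, adjusted p = 0.10). In both cases the fibroblast values lay farther apart than the colony means of the donors.

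The colonies varied unequally from gene to gene. The colony SD of the 4 bright FN1 probe sets was 0.51 to 0.58 over 6 colonies, a 2.71-fold to 3.15-fold range, against a median SD of 0.18 over the 4378 probe sets with an iPSC mean over 6. In that set these SDs stood at percentiles 95.4 to 97.1. VIM had an SD of 0.34 (1.82-fold range, percentile 84.6), EPCAM of 0.24 (1.64-fold, percentile 69.0) and ESRP1 of 0.16 (1.33-fold, percentile 41.0). The FN1 spread rested on colony 1 of KB10460. Without it the SD was 0.30 to 0.33, at percentiles 81.6 to 86.1, and without any other colony it was 0.47 to 0.65.

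Colony 1 of KB10460 had the lowest FN1 value at all 4 bright probe sets and the lowest VIM and EPCAM values. At 211719_x_at the KB10460 colonies 1 to 3 had values of 10.07, 11.51 and 11.29, and the KB10973 colonies 10.99, 10.72 and 11.11. The SD within KB10460 was 0.78 and within KB10973 0.20. For VIM the KB10460 colonies had values of 8.97, 9.67 and 9.17 and the KB10973 colonies 9.36, 9.13 and 9.83.

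The sums of some marker lists followed these differences and those of others did not. The sums of pluripotent and leukocyte markers were highest in colony 1 of KB10460 (12.58 and 5.71). That of neural markers was lowest in colony 2 of KB10460 (10.82). The fibroblast markers summed to 8.63, 9.29 and 8.96 in the KB10460 colonies and 9.07, 9.09 and 9.48 in the KB10973 colonies, so that colony 1 of KB10460 was lowest and colony 3 of KB10973 highest, as for VIM. Single markers of the list did not all have this order. COL1A2, from 6.65 to 8.26, had the same lowest and highest colony, but PDGFRA was lowest in colony 1 of KB10973 (4.94) and highest in colony 2 of KB10460 (7.26), and COL1A1 was lowest in colony 2 of KB10460 (5.998). THY1, which was higher in iPSCs, is also in the sum. The defining fibroblast markers DCN (3.75 to 3.82) and LUM (2.46 to 3.03) were at background in all 6 colonies. The order was not particular to fibroblast markers. The endothelial markers summed to 7.46, 8.17 and 7.83 in the KB10460 colonies and 7.92, 7.75 and 8.32 in the KB10973 colonies. All 6 colonies thus had the same order in the endothelial sum as in VIM, but no single marker of that list had it. KDR shared only the lowest and highest colony (6.55 and 7.96). VWF was highest in colony 2 of KB10460 (5.84), and TEK was lowest in colony 3 of KB10973 (4.40). The 6 measured markers of early endoderm or mesoderm, 3 of them called higher in iPSCs (GATA6, AFP and TBXT), summed to 6.28 to 6.48 in the fibroblasts. In the colonies they summed to 7.62, 9.37 and 9.59 in KB10460 and 8.46, 7.81 and 9.19 in KB10973, in the same order as FN1 at 211719_x_at except that the highest pair was exchanged. At 216442_x_at colonies 1 and 3 of KB10973 (9.93 and 9.90) were exchanged as well. GATA6, a transcription factor of early endoderm, had values of 5.88, 8.86 and 9.03 in the KB10460 colonies and 7.33, 6.05 and 8.28 in the KB10973 colonies. The signal is summed before the log2 is taken, so the highest markers weigh most, and the sum had the colony order of GATA6. FOXA2 had this order too, at 3.43, 4.95 and 5.58 in the KB10460 colonies and 3.94, 3.69 and 4.13 in the KB10973 colonies. AFP, a product of endoderm and liver, had another order, with values of 6.27, 5.43 and 6.37 in the KB10460 colonies and 6.35, 5.51 and 5.95 in the KB10973 colonies, and was thus lowest in the colony with the highest FN1 value. TBXT, GATA4 and SOX17 (3.49 to 4.62) had other orders as well. The call of GATA6 was lost without the KB10460 fibroblasts, and that of TBXT without either fibroblast array and without 4 of the 6 colonies. The part of these cells in the VIM and FN1 levels was not tested.

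**Figure D3:**
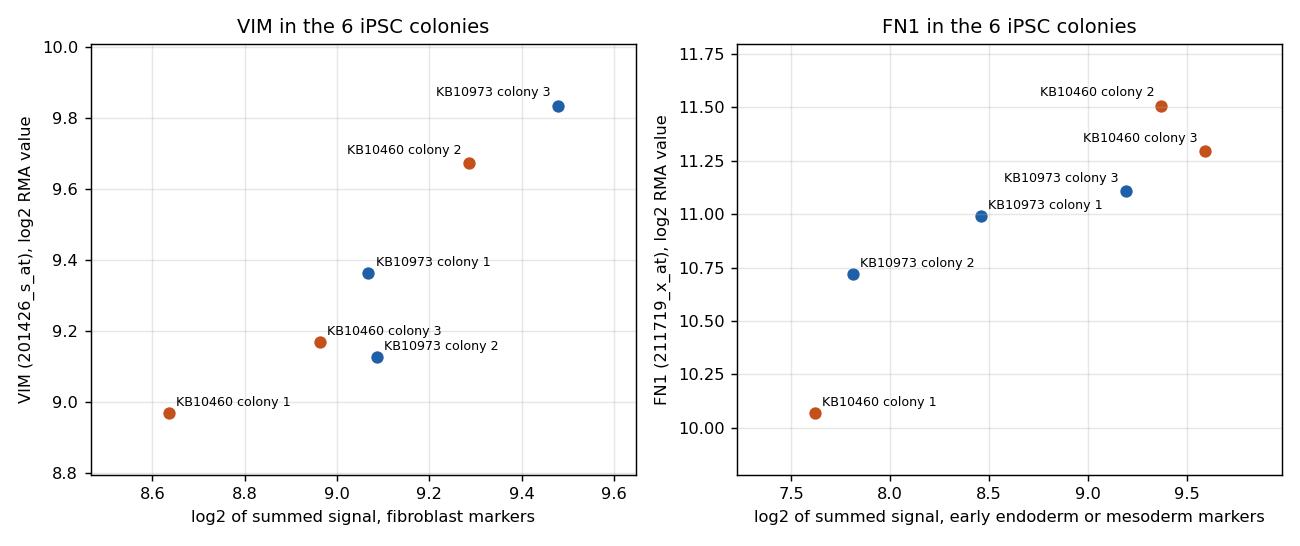
Log2 RMA value of VIM (left, 201426_s_at) and FN1 (right, 211719_x_at) in the 6 iPSC colonies, against the log2 of the summed signal of fibroblast markers (left) and of markers of early endoderm or mesoderm (right), coloured by donor. Colony 1 of KB10460 is lowest on all axes, and in each panel the 2 colonies with the highest marker sums are those with the highest value of the gene. The sum of endothelial markers, not drawn, had the colony order of VIM, which no single marker of that list had.

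Genes that act with the switch genes were counted at 1 probe set per gene. Among all 11963 genes 15.2% were called higher and 11.5% called lower in iPSCs, with a median log2 fold change of -0.0039. The lists were chosen with earlier results of these data known, and the counts are descriptions. CLDN7, SPINT2 and CD44 each stand in more than 1 of these lists. DCN, COL3A1, FAP, LUM, COL1A1, COL1A2 and THY1 are counted both as fibroblast markers and as mesenchymal matrix genes, so those counts are not independent. FOXA2 is both in the list of epithelial transcription factors and among the markers of early endoderm or mesoderm.

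Of 11 other transcription factors of the epithelial-mesenchymal transition, 3 were called lower, 2 higher and 6 not called (median -0.13). The lowered ones included PRRX2, the paralog of PRRX1 (7.11 and 7.57 in fibroblasts, 5.34 to 5.90 in iPSCs, change -1.81, SE 0.16), and ZEB2, the paralog of ZEB1 (4.10 and 4.95 in fibroblasts, 2.89 to 3.02 in iPSCs, change -1.59, SE 0.18). HMGA2, a chromatin protein that acts upstream of SNAI and TWIST genes in some cells and is abundant in embryonic cells, was higher instead (6.29 and 5.66 in fibroblasts, 7.51 to 8.37 in iPSCs, change 1.93, SE 0.25). SNAI1, the paralog of SNAI2, was near the array medians in all arrays (3.91 and 3.75 in fibroblasts, 3.57 to 3.77 in iPSCs) and was not called (change -0.13, SE 0.09, adjusted p = 0.32).

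Of 10 measured transcription factors of epithelial cells limma called 0 (median 0.11). An unadjusted p under 0.05 was reached by 2 of them and by 5204 of all 11963 genes. The adjusted p was past the threshold and the fold under it for both GRHL2, an activator of E-cadherin (3.25 and 3.31 in fibroblasts, 3.64 to 3.87 in iPSCs, change 0.50, SE 0.09, adjusted p = 0.0018), and OVOL2, a repressor of ZEB1 (3.37 and 3.36, 3.55 to 3.96, change 0.35, SE 0.11, adjusted p = 0.032). Their values were at background in all arrays.

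Of 29 genes of epithelial junctions and surfaces 18 were called higher, 1 lower and 10 not called (median 1.04). CDH1, encoding E-cadherin, was at 3.62 and 4.12 in the fibroblasts and 8.32 to 8.95 in the colonies (change 4.83, SE 0.19). The keratin partners KRT18 (3.55 and 3.50, 11.03 to 12.14) and KRT8 (5.33 and 5.07, 9.02 to 10.44) and the tight junction gene CLDN7 (4.60 and 4.24, 7.93 to 8.73) rose by 8.04, 4.57 and 3.89. The other way went the simple epithelial keratin KRT7 which fell by 1.36.

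Of 26 mesenchymal matrix and adhesion genes 20 were called lower, 3 higher and 3 not called (median -3.03). The largest decreases were those of the matrix genes DCN (-8.67, SE 0.07) and COL3A1 (-7.52, SE 0.42) and of the surface protease FAP (-6.60, SE 0.09). CDH2, which encodes the mesenchymal N-cadherin, rose instead, from 6.51 and 6.23 in the fibroblasts to 7.01 to 8.73 in the colonies (change 1.80, SE 0.42, adjusted p = 0.0097). Without the KB10973 fibroblasts its change was 1.66 and was not called.

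Of 15 receptors and assembly partners of fibronectin 9 were called lower, 1 higher (FERMT2, 0.79) and 5 not called (median -0.79). ITGA5 and ITGB1, the subunits of the classical fibronectin receptor, fell by 1.24 (6.94 and 6.26 in fibroblasts, 5.04 to 5.80 in iPSCs) and 1.74 (11.99 and 12.07, 9.86 to 10.62). The largest changes were those of the integrin adaptor TNS1 (-5.12), the crosslinking enzyme TGM2 (-4.12) and the fibronectin-binding matrix protein LTBP1 (-3.42). TGM2 was at 8.86 in the KB10460 and 6.35 in the KB10973 fibroblasts. Its change was -2.87 without the KB10460 fibroblasts, smaller than that of LTBP1 (-3.35), and -5.38 without those of KB10973.

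Of 12 other intermediate filament and plakin genes 4 were called higher, 3 lower and 5 not called (median 0.34). Those higher were INA (2.87, SE 0.29), NEFM (2.59, SE 0.34), NES (2.20, SE 0.22) and NEFL (2.09, SE 0.24), which encode neuronal filament subunits and nestin, a filament protein of stem and progenitor cells that assembles with vimentin. NES was at 4.86 and 5.42 in the fibroblasts and at 6.89 to 7.79 in the colonies. Those lower were the linker proteins DST and PLEC and the nuclear lamin LMNA. Of 5 neural markers in a separate list TUBB3 alone was called higher, and PAX6 (3.34 to 3.59) and SOX10 (3.75 to 4.29) were at background in the colonies.

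Around ESRP1, 14 measured splicing factors that act on similar exons divided into 9 called higher, 4 lower and 1 not called (median 1.37). The muscleblind proteins MBNL1 (8.28 and 7.90 in fibroblasts, 3.72 to 3.95 in iPSCs) and MBNL2 (7.61 and 7.57, 2.98 to 3.89), which favour splice forms of differentiated cells, fell by 4.23 and 4.05. CELF2 was called lower as well (8.83 and 8.63, 4.31 to 5.48). RBFOX2, which supports mesenchymal splice forms of several transcripts, fell by 0.94, whereas QKI, which does so too, rose by 1.27 (7.92 and 7.87 in fibroblasts, 8.98 to 9.30 in iPSCs, SE 0.10). Of 12 measured genes with exons that ESRPs are known to select 3 were called higher, 1 lower and 8 not called (median -0.03). These were FGFR2 (4.65 and 6.36 in fibroblasts, 7.05 to 7.61 in iPSCs, change 1.81, SE 0.36), ENAH (0.93) and SCRIB (0.82), all higher, and CD44 (9.36 and 9.69 in fibroblasts, 5.52 to 6.92 in iPSCs, change -3.24, SE 0.38). For FGFR2 the change was 0.95 without the KB10460 fibroblasts and 2.66 without those of KB10973. The probe sets measure the summed transcripts of a gene, so exon choice was not analysed here.

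Of 11 partners and processing enzymes of EPCAM 3 were called higher, 4 lower and 4 not called (median -0.26). The higher ones were CLDN7 (3.89), which binds EPCAM, the protease inhibitor SPINT2 (3.71) and PSEN2 (1.08), a subunit of the protease that releases the intracellular part of EPCAM. The lower ones were CD44, FHL2 (-1.89, SE 0.52), CTNNB1 (-0.91, SE 0.12) and ADAM10 (-0.70, SE 0.09). The call of PSEN2 was lost without the KB10460 fibroblasts and that of FHL2 without either fibroblast array. ADAM10 and the protease of PSEN2 cleave EPCAM, and the released part binds the products of FHL2 and CTNNB1.

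TGF-beta signalling is the classical inducer of the transition and raises SNAI, ZEB and FN1 expression in many cells. Of 16 pathway genes 7 were called lower, 1 higher (SMAD4, 0.84, SE 0.26, adjusted p = 0.036) and 8 not called (median -0.34). SMAD4 was at 3.92 and 4.64 in the fibroblasts and at 4.60 to 5.66 in the colonies, so that the cell types overlapped. Its change was 0.48 without the KB10460 fibroblasts and 1.20 without those of KB10973, and the call was lost in the former case and in 4 of the 6 without a colony. The type II receptor gene TGFBR2 was at 9.64 and 9.63 in the fibroblasts and 3.34 to 3.65 in the colonies, below the array medians (change -6.11, SE 0.09, adjusted p = 3.4e-10). THBS1, an activator of latent TGF-beta, fell by 5.22 and LTBP2 by 3.31. The type I receptor gene TGFBR1 was at background in both cell types (3.45 and 3.33 in fibroblasts, 3.22 to 3.48 in iPSCs).

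**Figure D4:**
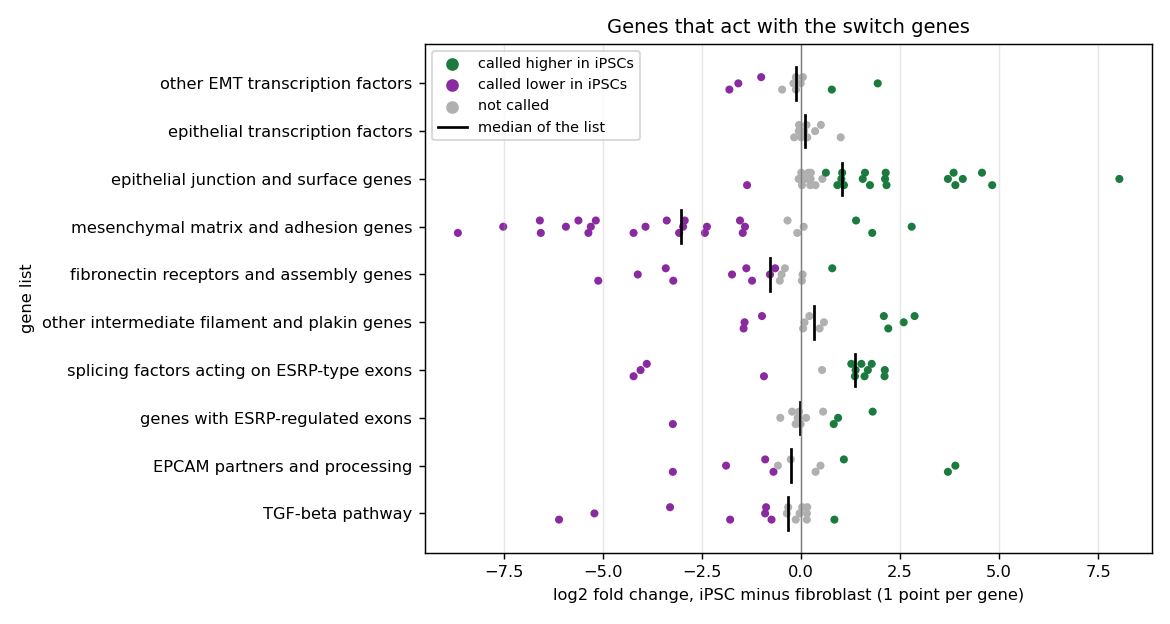
Log2 fold change of iPSCs against fibroblasts (horizontal axis) of the genes of 10 lists, 1 point per gene, coloured by call, with the median of each list as a vertical bar. Mesenchymal matrix genes lie mostly to the left (median -3.03), epithelial junction genes to the right (median 1.04), and no epithelial transcription factor was called.

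For each member the gene was sought, among the 11962 others, whose profile over the 8 arrays lay nearest after both were centred on their means (Euclidean distance on the log2 scale). These were VAMP8 for EPCAM (0.52), SALL2 for ESRP1 (0.32), TFPI for ZEB1 at 212758_s_at (0.35), DOCK10 for SNAI2 (0.52), ACYP2 for TWIST1 (0.68), WIPF1 for VIM (0.59), WLS for FN1 at 211719_x_at (0.63) and TSPAN3 for PRRX1 (0.11). With 2 cell types on 8 arrays these distances are governed mainly by the size of the difference between fibroblasts and iPSCs. VAMP8, for example, had means of 3.04 in fibroblasts and 8.64 in iPSCs, and SALL2 of 4.13 and 7.73.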

How the data were processed

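Total RNA of each culture was labelled with biotin and hybridized to a one-colour human Affymetrix array. The authors normalized the arrays with RMA in WebArray (version not given in the sources used here) and deposited a log2 value for each of 22277 probe sets. RMA equalizes the distributions of the arrays, so a shift of most transcripts would be removed. No value column (0) lacked a sample. An annotation table gave 1 symbol for 19070 probe sets, several for 1043 and none for 2164.

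From the deposited values limma 3.58.1 (lmFit, eBayes) in R 4.3.3 compared 6 iPSC with 2 fibroblast arrays, the iPSCs of the donors, and the donors' changes over 4 groups. Calls needed a fold over 1.5 and an adjusted p under 0.05 by Benjamini and Hochberg, which replaced the SPLOSH rates of the study's methods. Figures used Python 3.11.15 and matplotlib 3.10.9. Scripts were tested on simulated data. Lists were read at the probe set with the highest mean per gene. The text names all member probe sets, the 3 called genes of each list with the largest change, starred genes of the lists, and the nearest gene of each member, and further genes, mostly where a count was 5 or fewer, after their values were seen. Members, lists and this rule were chosen with earlier results of these data known. The donor pairs the arrays, since both cell types were taken from 1 animal (r = 0.02 between the donor differences of both cell types over probe sets). The number of arrays limits the precision.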

Additional observations from a re-analysis of the deposited data

How the results depend on the processing

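Over 19 alternatives of the comparison of iPSCs with fibroblasts, 272 values kept direction and call, 10 lost the call and 0 reversed. With the donor as a replicate block 13 probe sets were called lower and 2 higher, as without it. Without single arrays 12 to 13 were lower and 2 higher. The bright probe sets of ZEB1, VIM, FN1, EPCAM and ESRP1 and that of TWIST1 kept their calls throughout. FN1 at 214701_s_at lost its call in 5 of the 19 (change -1.23 to -0.42). With colonies averaged within donor SNAI2 and FN1 at 214702_at lost theirs (adjusted p = 0.068 and 0.056), and with a 2-fold rule ZEB1 at 210875_s_at, PRRX1 and both dim FN1 probe sets did. The colony number as a replicate block left 0 of 15 called between donors (colony numbers share only a number, r -0.06, -0.01 and 0.06). With eBayes trend and robust, the difference of the donors' changes was called for 1 probe set, FN1 at 214702_at (-0.66, adjusted p = 0.038), instead of 0, and the cause was not tested. With all probe sets of a gene averaged, 1 in place of 2 other transcription factors of the transition and 0 in place of 1 TGF-beta gene (SMAD4) were called higher, and with the most variable probe set 2 in place of 1 gene with ESRP exons were called lower. Leaving out single arrays for colony spread and list genes was added after seeing the data. The search for E-boxes in promoters was not run. Background signal limits what can be seen at low values, namely PRRX1, SNAI2 and ZEB1 in iPSCs and EPCAM and ESRP1 in fibroblasts.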
